A study of Caenorhabditis elegans with 24 samples.

Results

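The regions described here are the shared TDP-1 peaks on the arms of chromosomes II to V of Caenorhabditis elegans, places where immunoprecipitated chromatin of both ChIP replicates was called enriched and RNase-treated chromatin was not. A region was included when a peak of ChIP replicate 2 overlapped a peak of replicate 1 by at least 1 bp, overlapped no peak of the RNase-treated ChIP, and had its midpoint in the outer 25% of the chromosome at either end. This rule gave 596 of the 3204 peaks of replicate 2, beside 848 shared peaks in the centres of the same 4 autosomes, 380 on X and 2244 in the whole genome. Of the 781 arm peaks of replicate 2, 76.3% were shared (Wilson 95% interval 73.2 to 79.2, counting error only), against 70.0% of the peaks on all chromosomes.

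TDP-1 is the worm ortholog of human TDP-43, a nuclear protein that binds single-stranded, UG-rich RNA and takes part in splicing and RNA processing. Chromatin immunoprecipitation with an antibody to such a protein recovers DNA near the transcripts it is bound to while they are still being made, and digestion of the extract with RNase removes contacts that run through RNA. The arms of worm autosomes differ from their centres: they recombine more often and hold more repeated sequence, more long introns and fewer highly conserved genes, and most of the RNA duplexes edited by adenosine deaminases arise from inverted repeats of the kind that the arms are rich in.

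The study compared tdp-1(ok803), a deletion allele, with the wild type N2. The ChIP libraries, 2 with anti-TDP-1 and 1 after treatment with RNases A, T1 and V1, came from young adults at 20°C, and the labels give tdp-1(ok803) as the strain of all 3, so the animals named there carry a deletion in the gene for the antibody's target. No wild-type ChIP and no mock precipitation was analysed here, and whether that strain label holds was not tested. RNA came from whole animals: poly(A) RNA from L4 larvae at 20°C (3 tdp-1(ok803) and 3 wild-type libraries), RNA precipitated with the J2 antibody to double-stranded RNA (J2-IP) from young adults at 15°C (3 tdp-1(ok803) and 3 wild-type libraries), its input (1 and 1 library), and total RNA from L4 larvae at 20°C (3 tdp-1(ok803), 3 wild-type and 1 adr-2(gv42) library, the last lacking the worm's active RNA-editing deaminase), from which the study listed A-to-I edited regions. The labels number the libraries of a genotype but do not say whether they came from separate cultures, so p-values measure the spread between these samples. The paper describes the 3 J2-IP lysates as biologically independent. For its poly(A) comparison it names 2 independent biological replicates, beside the 3 libraries per genotype used here. All coordinates are on the WS220 build and count from 1.

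The 2 ChIP replicates differed in size before any comparison was made. Replicate 1 had 16028 peaks with a median width of 969 bp, replicate 2 had 3204, and the RNase-treated ChIP had 168. On the arms, replicate 1 had 6270 peaks and the RNase-treated ChIP 68. Of those 6270 arm peaks only 508, or 8.10%, touched a peak of replicate 2 and no RNase peak, against 17.8% of the replicate 1 peaks in the centres. The 781 arm peaks of replicate 2 consisted of the 596 shared ones, 174 that touched no replicate 1 peak and 11 that touched one but also an RNase peak. The unshared 174 had a median score of 109 and a median width of 457 bp. The depth of the ChIP libraries is unknown, and the 2 libraries allow no test over samples, so differences between chromosome regions are given below as descriptions with the number of autosomes that show them.

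Shared peaks were sparser on the arms than in the centres. The arms held 17.7 shared peaks per Mb and the centres 25.1, and the arms were the lower of the 2 on 4 of 4 autosomes and in 6 of 8 single arms. Counts by arm ran from 41 on the left arm of II and 46 on the right arm of IV to 102 on the left arm of IV and 112 on the right arm of II. The remaining arms held 64 (III left), 98 (III right), 70 (V left) and 63 (V right). Both arms that exceeded their own centre were right arms: the right arm of II reached 29.3 per Mb against 26.4 in the centre of II, and the right arm of III 28.4 per Mb against 27.9. II and IV were lopsided in opposite directions, with 10.7 per Mb on the left arm of II and 10.5 per Mb on the right arm of IV.

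The density rose from the ends to the centre when distance from the nearer chromosome end was taken in steps of 5% of chromosome length. The outermost 3 steps held 16.3, 16.5 and 15.4 shared peaks per Mb, the next 2, up to the 25% boundary, 19.6 and 20.6, and the first 2 steps inside the centre 24.9 and 27.9. The step from 35% to 40% was lower again, at 19.4, and the innermost 2 held 25.8 and 27.7. The last member inside the boundary lay at 24.99% of the length of III (10338826 to 10339290, score 122), and the nearest shared peak outside it at 25.04% of II (11453338 to 11454593, score 2874). The member nearest to a chromosome end started at base 121 of II.

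**Figure D1:**
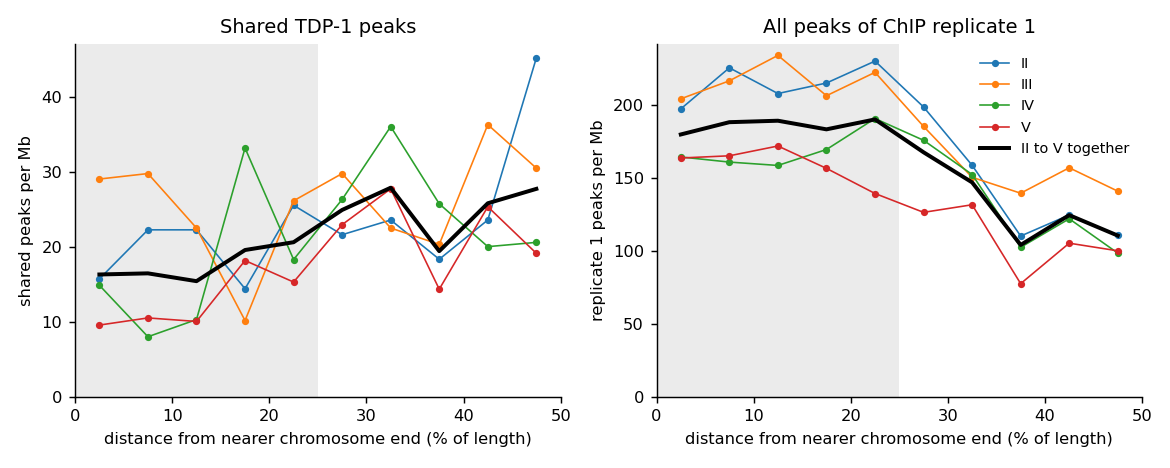
Peaks per Mb (vertical axes) against distance from the nearer chromosome end in percent of chromosome length (horizontal axes, steps of 5%, both ends added together), for each autosome (coloured lines) and for II to V together (black), with the arms shaded; left, shared peaks, right, all replicate 1 peaks. Shared peaks climb from 16.3 per Mb at the ends to 24.9 per Mb just inside the centre, whereas replicate 1 peaks fall from between 180 and 190 per Mb on the arms to 110 per Mb at the middle.

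Replicate 1 taken alone ran the other way. It had 186 peaks per Mb on the arms and 131 in the centres, and its peaks covered 24.3% of arm bases and 16.5% of centre bases, with the arms higher on 4 of 4 autosomes for both measures. The density of replicate 2 peaks was 23.1 per Mb on the arms and 38.4 per Mb in the centres. A replicate 2 peak on an arm therefore had more replicate 1 peak around it to meet: the midpoint of 66.7% of arm peaks and of 55.2% of centre peaks of replicate 2 lay inside a replicate 1 peak. The share of replicate 2 peaks that were shared was also higher on the arms (76.3%) than in the centres (65.5%, Wilson 95% interval 62.9 to 68.1), on 4 of 4 autosomes and in 7 of 8 arms. The exception was the right arm of IV with 55.4%. By score, 64.4% of arm peaks and 56.6% of centre peaks with a score of 50 to 100 in replicate 2 were shared, and 88.7% and 82.5% of those with a score of at least 1000. The part of the wider replicate 1 coverage in that higher share was not tested.

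The strength of a peak is given by the score of the peak caller MACS, which grows with the evidence for enrichment over the RNase-treated library (minus 10 times the log10 of the p-value, with a lowest value of 50 in these files). Scores pile up at 3100, which 278 of all replicate 2 peaks have exactly and 6 exceed, so 3100 acts as a ceiling. In replicate 2 the arm peaks were weaker than the centre peaks, with a median score of 229 (quartiles 99.3 and 832) against 293 (quartiles 109 and 1199) in the centres and 286 on X. The difference of the medians, arms minus centres, was -64.1, or -40.1 with arms of the outer 33%. It was -96.6 on III, -90.6 on IV and -63.6 on V, and 45.7 on II, where the right arm had the highest median of all 8 arms, 347. At the ceiling or above it were 55 arm peaks (9.23%), against 115 centre peaks (13.6%) and 42 on X (11.1%). Scores under 100 belonged to 150 arm peaks (25.2%) and to 23.3% of the centre peaks.

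The replicate 1 peaks that met these regions did not show the same order. Each shared peak was given the highest score of the replicate 1 peaks it met, so a replicate 1 peak that met several counts several times. The median of these scores was 1247 for arm peaks, 858 for centre peaks and 853 for X. The difference of arms minus centres, 389, was positive on II (1165) and IV (422) and negative on III (-5.88) and V (-46.2). It was 122 with arms of the outer 33% and 168 without II. The score of replicate 1 exceeded that of replicate 2 in 434 of the 596 members (72.8%), and in 60.5% of the centre peaks. Across the 596 members the scores of the 2 replicates had a Spearman rank correlation of 0.20, and the score and width of replicate 2 one of 0.91. These regions share libraries and many share a replicate 1 peak, so the correlations are descriptions. Only 32 members (5.37%) reached the ceiling in both replicates, beside 50 centre peaks (5.90%) and 22 on X (5.79%), and 37 members (6.21%) combined a score under 100 in replicate 2 with the ceiling in replicate 1.

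**Figure D2:**
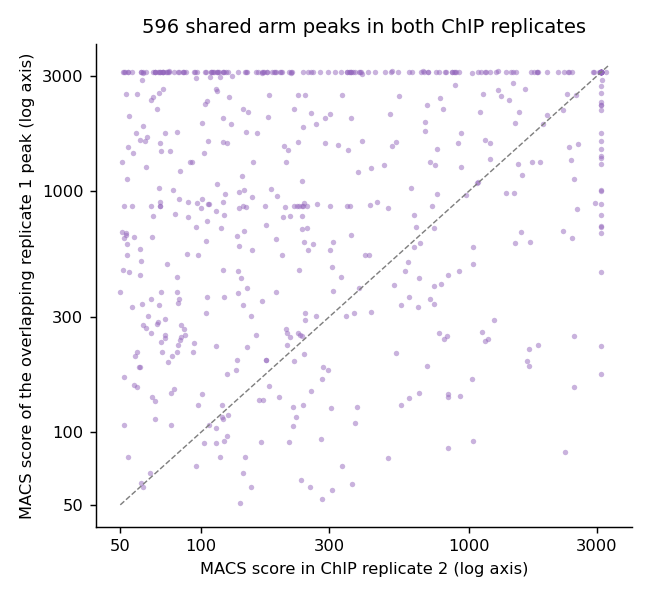
Each point is 1 of the 596 members, with its MACS score in replicate 2 (horizontal, log axis) and the highest score of the replicate 1 peaks it overlaps (vertical, log axis); the dashed line marks equal scores. Most points, 434 of 596, lie above the line, and the row along the top is the ceiling of 3100 in replicate 1.

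**Figure D3:**
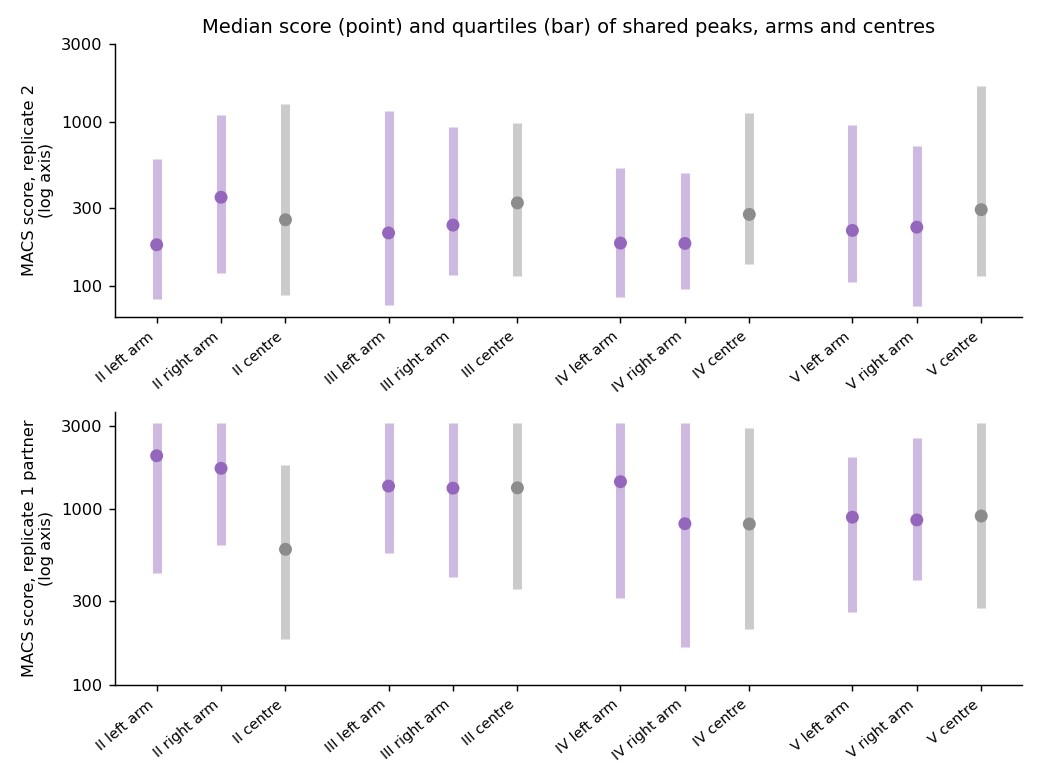
Median MACS score (points) and lower to upper quartile (bars) of shared peaks on each arm (purple) and centre (grey) of II to V, for replicate 2 (upper panel) and the overlapping replicate 1 peak (lower panel), on log axes. In replicate 2 the right arm of II, at 347, is the 1 arm with a median above its own centre; in replicate 1 the left arm of II is highest, at 2021.

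Arm peaks were narrower in replicate 2. Their median width was 607 bp (quartiles 380 and 1121 bp) against 689 bp in the centres and 680 bp on X, a difference of arms minus centres of -82 bp. That difference was -25 bp with arms of the outer 33%, -144 bp among peaks with scores of at least 100 in both replicates, -123 bp without II and -51 bp without V. Arms were narrower on 3 of 4 autosomes and in 7 of 8 arms, by 41.5 bp on III, 138 bp on IV and 183 bp on V, and on II they were 34.5 bp wider. Widths ran from 107 to 9025 bp, and 57 members (9.56%) were wider than 2 kb, against 14.2% of the centre peaks. Since score and width went together in replicate 2 the 2 differences are not separate observations. Replicate 1 went the other way. Its main peak at each member had a median width of 1784.5 bp on the arms, 1482 bp in the centres and 1416 bp on X. Over all replicate 1 peaks the difference of arms minus centres was 39 bp. Together the 596 members covered 551 kb, or 1.63% of the 33.7 Mb of arm sequence.

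Many members lay close together. The distance from 1 member to the next had a median of 8693 bp on the arms and 8689 bp in the centres, with a lower quartile of 419 bp on the arms and 603 bp in the centres. When members at most 1000 bp apart were joined, the 596 formed 398 clusters, of which 274 were single peaks, and 54.0% of members had a neighbour in this sense, against 48.1% of the centre peaks and 46.8% of those on X. The members met 464 different replicate 1 peaks, and 226 members (37.9%) shared their main replicate 1 peak with another member, against 34.7% in the centres. The 3 nearest pairs were 1 bp apart (IV, 3634602 to 3636022 and 3636024 to 3636462, the first at ZC416.2), 2 bp apart at nurf-1 (II, 14407163 to 14407563 and 14407566 to 14407845) and 2 bp apart on V (5056478 to 5056798 and 5056801 to 5058505). Neighbours so close may be a single enriched stretch that the caller split, and the count of 596 therefore counts peaks, not sites. The overlap with replicate 1 could also be slight: for 332 members (55.7%) the replicate 1 peaks covered the whole peak, but for a member on V (19609542 to 19609833) they covered 7 of its 292 bp.

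The most crowded place stood on the right arm of V and was regular. There a single replicate 1 peak of 25135 bp (17119569 to 17144703, score 870), the widest replicate 1 peak on any arm, took in 14 members between 17120683 and 17131582, 22.2% of all members of that arm. The next highest number on a single replicate 1 peak of the arms was 5, and the highest was 4 in the centres and 5 on X. Of the 14 members, 9 were 298 to 302 bp wide, with replicate 2 scores of 173 to 349. Their starts followed each other at distances of 972 to 982 bp (median 976 bp) in 7 of 8 steps, and the remaining step was 3531 bp. The other 5 members on this peak scored 51.6 to 70.1 and were 168 to 562 bp wide. No peak of the RNase-treated ChIP lay on it.

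The place was set beside the order of genes. The nearest gene to the left that the study's gene lists place on WS220 is ZK218.7, 14050 bp before the first of the 14 members, and the nearest to the right is Y68A4A.13, 75602 bp after the last. Between these 2 genes the RefSeq annotation of assembly WBcel235, used here only for names and order, lists 57 genes, among them 14 rrn-4 genes and 12 sls-1 genes that form a run of mostly alternating copies in the part next to ZK218.7. The rrn-4 genes encode 5S ribosomal RNA, and the sls-1 genes encode the SL1 leader RNA, the short capped RNA whose leader is spliced onto the start of most worm messages. No WS220 position of these genes was used, so whether the 14 members lie on them was not tested. Copies in a tandem array share sequence, so members on one would not be independent of each other, and how the aligner placed reads that match several copies is not given in the sources used here. Without these 14, an alternative chosen after they were seen, 582 members remained and the difference of arms minus centres was -63.1 in median score and -65.5 bp in median width.

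**Figure D4:**
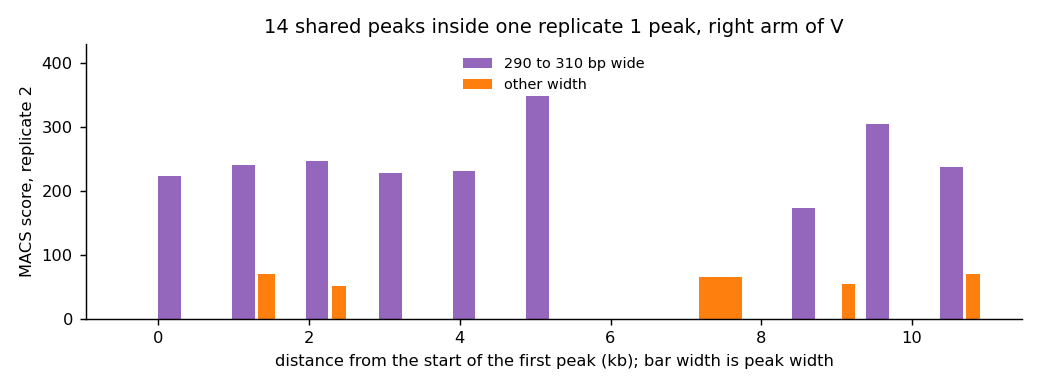
The 14 members inside a single replicate 1 peak on the right arm of V, with distance from the start of the first member in kb (horizontal) and MACS score of replicate 2 (vertical); the width of each bar is the width of the peak. The 9 purple bars, 298 to 302 bp wide, follow each other at about 976 bp in 7 of 8 steps, and the remaining step is 3531 bp. The 5 orange bars are the weaker members.

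The spacing of the other clusters was not measured. On the right arm of III, 6 members with replicate 2 scores of 101 to 1885 lay within 5882 bp (12562727 to 12568608). On the right arm of II, 5 members filled 12502 of 13875 bp (13278492 to 13292366), 2 of them at the ceiling in both replicates. On the left arm of IV, 5 members of 215 to 915 bp lay within 3297 bp on a single replicate 1 peak (3206269 to 3209565), none above a replicate 2 score of 395. Another cluster of 5, on the right arm of II, coincided with an edited intron and is described with the edited regions.

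Scores at the ceiling do not rank the strongest members. The highest score of replicate 2 was 3230, for a peak of 1074 bp on the right arm of III (12607649 to 12608722) whose replicate 1 score was 3100. The second, 3138 with a replicate 1 score of 2897, was on the left arm of III (1218843 to 1220236, 1394 bp). The other members at the ceiling share a replicate 2 score of 3100, and the 8 named next are only the widest of those at 3100 in both replicates, with widths of 3728 to 9025 bp. They were 4 peaks of the right arm of II, 2 of the right arm of III and 1 on each arm of IV. The widest of them, 9025 bp on the right arm of III (10811338 to 10820362), followed a smaller member at klp-7 (10810195 to 10811076, score 315), which encodes a microtubule-depolymerising kinesin. The next widest were 5499 bp on the right arm of II (11615515 to 11621013) and 5487 bp on the right arm of IV (16487474 to 16492960). The leading members of the remaining arms were likewise at 3100 in both replicates: on II left at pod-2 (1147299 to 1149398), which encodes acetyl-CoA carboxylase, on V left (1473679 to 1476943) and on V right (18233834 to 18236156).

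Edited regions are stretches of transcript in which adenosines of a double-stranded stem are deaminated to inosine. The deposited list gives 204 of them, 148 with a position, of which 146 could be used after 2 with reversed ends were turned round and 2 with impossible spans were left out. Of the 93 on II to V, 76 (81.7%) lay on the arms, in 73 genes. Only 2 of these 76 overlapped a member (2.63%, Wilson 95% interval 0.72 to 9.10), close to the 2.74% (4 of 146) of edited regions that overlapped a shared peak on any chromosome. In the centres it was 1 of 17. Of the same 76, 4 met any replicate 2 peak and 39 (51.3%) any replicate 1 peak, close to the 47.1% of edited regions in the centres and 47.3% on all chromosomes that did so. From an arm edited region to the nearest shared peak the median distance was 24912 bp, and 23 of 76 had one within 10 kb. Most edited regions on the arms therefore lay outside the shared peaks, although many touched a replicate 1 peak.

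Both edited regions that met a member were introns. In spsb-1, which encodes a protein with SPRY and SOCS box domains, the edited intron (II, 15209613 to 15217621, 165 listed positions) met 3 members that together covered 7090 of its 8009 bp. Their replicate 2 scores were 3100, 3100 and 113, and their replicate 1 scores were 1494, 228 and 228. They belonged to a cluster of 5 members reaching from 15206197 to 15216911. In egl-8, the phospholipase C beta of Gq signalling in neurons and muscle, the edited intron (V, 31940 to 33462, 124 positions) met a member of 1532 bp (31561 to 33092, replicate 2 score 1181, replicate 1 score 242). No replicate 1 peak met the edited stretch itself, and the nearest lay 20 bp from it. Several others missed by little: the gap to the nearest member was 323 bp for the edited intron of Y67D2.2 on III, 502 bp for nhr-14, a nuclear hormone receptor on V, and 1543 bp for cct-7 on V. The member with the highest replicate 2 score, on the right arm of III, lay between the edited introns of epc-1 and Y111B2A.12, 1341 bp from the second.

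To set RNA beside the peaks, members were matched to genes that the study's lists place on WS220. This step was chosen after the values were seen, and 70 members fell on 43 listed genes. A match did not need the member to lie wholly inside the gene, and those at hrpa-1, cfp-1, pck-1, klp-7 and sip-1 did not. The study chose those lists for a difference between these genotypes in abundance or splicing, so they are a source of names and no independent evidence. From the splicing list, 16 genes held 29 members, 9 of them with more than 1. These 16 were 26.7% of the 60 splicing-list genes on the arms, close to the 25.9% in the centres that held a centre peak. For the abundance list the shares were 6.03% of 464 genes on the arms and 6.62% in the centres. With spsb-1 the 16 genes of the splicing list make 17 genes, each described by its poly(A) and J2-IP values below.

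In poly(A) RNA none of the 17 genes passed the test. Over all 15814 genes tested, limma called 0 genes between the genotypes (background 0%, Benjamini-Hochberg adjusted p below 0.05), and 413 had an unadjusted p under 0.05. On recovered reads edgeR called 0 genes and DESeq2 19 (8 higher and 11 lower in tdp-1(ok803)), none of them among the 17. The log2 fold changes of the 17, tdp-1(ok803) over wild type, ran from -0.53 to 0.25 with a median of -0.20 (standard errors 0.26 to 0.51), beside a median of -0.02 over all genes. The median of the 17 rested on single libraries: it was -0.01 without wild-type replicate 1, -0.02 without tdp-1(ok803) replicate 2 and -0.49 without tdp-1(ok803) replicate 1, and -0.15 to -0.35 without any other library. Normalized counts of spsb-1 were 2936, 1936 and 1951 in tdp-1(ok803) libraries and 6586, 2215 and 2298 in wild-type libraries, and those of egl-8 were 12059, 8870 and 10061 in tdp-1(ok803) and 16998, 9685 and 10037 in wild type. For both genes replicate 1 was the highest library of its genotype. Replicate 1 was also the deepest library of each genotype, and without it in both, an alternative chosen after seeing the data, limma called 565 genes, 0 of them among the 17. The groups of egl-8 overlapped, and those of spsb-1 did too, although spsb-1 was lower in tdp-1(ok803) within each of the 3 replicate numbers. Its log2 fold change was -0.53, or -0.02 without wild-type replicate 1, and with a replicate block its limma adjusted p was 0.48. The block gave 1702 genes with an unadjusted p under 0.05 and 1 called gene, which was not among the 17. The gene with the lowest unadjusted p was max-2, a p21-activated kinase of axon guidance, with 8737, 7831 and 9249 in tdp-1(ok803) and 9775, 11235 and 16411 in wild type, or -0.50 on the log2 scale (SE 0.26, limma adjusted p = 1). In whole animals a lower count can come from fewer cells of a type or from less RNA per cell, which cannot be told apart.

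The targeted gene gave an unclear check of the labels. Libraries that the labels call tdp-1(ok803) had poly(A) counts of 915, 3542 and 3478, against 2156, 3501 and 4322 in wild type. Their J2-IP values were 53, 61 and 50, against 27, 27 and 25 in wild type. A total per gene does not tell exons inside the deletion from those outside it, so directions between genotypes rest on the labels.

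The J2-IP values shifted as a whole between genotypes, which decides how single genes are read. The paper normalized J2-IP counts to input before comparing genotypes. Whether the deposited values carry that step is not stated, so the part of the input in this shift is unknown. Over 6903 genes the median log2 fold change was 0.25, and limma (p under 0.05 and Benjamini-Hochberg adjusted p under 0.1) called 3432 genes higher in tdp-1(ok803) (49.7%) and 400 lower (5.79%). After quantile normalization the median was -0.01, with 1593 called higher (23.1%) and 1738 lower (25.2%). Of the 17 genes with members, 9 were called higher and 1 lower with the deposited values, and 4 higher and 6 lower after quantile normalization. Their median log2 fold change was 0.26, beside 0.25 over all genes, and their count of higher genes is near the background. Called in the same direction both ways were 4 higher genes (hrpa-1, atx-2, gei-4 and cfp-1) and 1 lower gene (spsb-1). How many of all 6903 genes were called both ways was not counted. Since 23.1% of all genes were called higher after quantile normalization, the 4 higher of 17 are given as values, not as a feature of the members.

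Among genes for RNA-binding and chromatin proteins, hrpa-1, an hnRNP A1 family protein, stood highest. Its J2-IP values were 345, 324 and 338 in tdp-1(ok803) and 186, 159 and 165 in wild type, or 0.98 on the log2 scale (SE 0.08, limma adjusted p = 0.00015) and 0.74 after quantile normalization. Its input, 1 library each, had 109 in tdp-1(ok803) and 192 in wild type, opposite in direction. If the J2-IP values were normalized to input, a lower input would itself raise them, so the 2 directions may not be independent. The single member at hrpa-1 (IV, 3336615 to 3337192) scored 261 in replicate 2 and 3100 in replicate 1. For atx-2, the worm ataxin-2, the values were 378, 366 and 325 in tdp-1(ok803) and 225, 217 and 221 in wild type (log2 difference 0.68, SE 0.07, limma adjusted p = 0.00043, and 0.45 after quantile normalization), with 1 member (III, 10463351 to 10463770, scores 130 and 3005 in replicates 2 and 1). For cfp-1, the CpG-binding subunit of the Set1 histone methyltransferase complex, they were 120, 114 and 118 in tdp-1(ok803) and 76, 83 and 80 in wild type (0.55, or 0.30 after quantile normalization), with a member at the ceiling of replicate 2 (IV, 14082854 to 14083907). The groups of these 3 genes did not overlap, with tdp-1(ok803) higher, as in 49.6% of all 6903 genes tested. For nurf-1, a subunit of the NURF chromatin remodeller with 4 members between 14405285 and 14407845 of II, they were 435, 400 and 390 in tdp-1(ok803) and 333, 323 and 327 in wild type, a log2 fold change of 0.32 that was 0.06 and no longer called after quantile normalization.

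Of 5 genes for signalling proteins, 2 were called higher with the deposited values, against 49.7% of all genes tested. The cGMP-dependent kinase egl-4 (1 member, replicate 2 score 51.3) had a log2 fold change of 0.30 and the hypoxia-inducible factor hif-1 (2 members, the stronger at 2406) of 0.38. Both were called with the deposited values and not after quantile normalization, where they stood at 0.05 and 0.14. For max-2, with 3 members of up to 3100 in replicate 2, the log2 fold change was -0.01, and for the protein kinase C gene tpa-1 it was -0.03. Neither was called with the deposited values, and both were called lower after quantile normalization, at -0.26 and -0.29. For egl-8 the values were 236, 232 and 229 in tdp-1(ok803) and 209, 225 and 224 in wild type, or 0.08 on the log2 scale (SE 0.06, limma adjusted p = 0.30). These groups did not overlap, with tdp-1(ok803) higher, as in 49.6% of all genes tested. Quantile normalization turned the log2 fold change of egl-8 to -0.14, also not called. With libraries scaled to equal totals, chosen after seeing the data, egl-8 was called lower at -0.27 (limma adjusted p = 0.026).

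Among the remaining genes, gei-4, with 3 members between 345033 and 350331 of III that all met replicate 1 peaks at the ceiling, had 213, 190 and 183 in tdp-1(ok803) and 131, 122 and 138 in wild type (log2 difference 0.58, SE 0.08, limma adjusted p = 0.0012, and 0.33 after quantile normalization). The gluconeogenic enzyme pck-1 (2 members, III, 62153 to 67252, replicate 2 scores 3100 and 3080) and the mitochondrial aldehyde dehydrogenase alh-6 (2 members) were called higher at 0.26 and 0.29, and neither after quantile normalization. The plasma membrane calcium pump mca-3, the autophagy gene epg-9, F56A8.3 and the chaperonin subunit cct-7 were not called with the deposited values (log2 differences -0.06, -0.15, 0.13 and -0.23). After quantile normalization mca-3 (-0.32), epg-9 (-0.41) and cct-7 (-0.48) were called lower, and F56A8.3 (-0.12) was not. With a term for the replicate number, cct-7 was called lower at the same fold change (limma adjusted p = 0.074).

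Of the 17 genes, spsb-1 had the highest ratio of J2-IP to input. It is 1 of only 2 genes whose edited intron met a member, and had the larger stretch of it covered. Its J2-IP values were 301, 346 and 362 in tdp-1(ok803) and 369, 388 and 431 in wild type, beside inputs of 67 in tdp-1(ok803) and 76 in wild type. The ratios of 5.02 in tdp-1(ok803) and 5.21 in wild type exceeded those of 96.4% of the 6097 genes with values of at least 10 in tdp-1(ok803) and 98.9% in wild type, where the medians were 1.71 in tdp-1(ok803) and 1.17 in wild type. The ratios of egl-8, the other such gene, were 2.80 in tdp-1(ok803) and 1.96 in wild type. They exceeded those of 84.55% of genes in tdp-1(ok803) and 87.57% in wild type. In wild type the ratio of egl-8 was below those of epg-9, F56A8.3, max-2 and mca-3. The medians of the 17 genes were 2.41 in tdp-1(ok803) and 1.35 in wild type. Each input is 1 library, so the ratios have no test. If the J2-IP values were already normalized to input, as the paper did before its comparison, these ratios and ranks divide by the input again. Whether they were is not given in the sources used here. Between genotypes spsb-1 was called lower in tdp-1(ok803), at -0.24 on the log2 scale (SE 0.09, limma adjusted p = 0.069), and -0.51 after quantile normalization. With a term for the replicate number its limma adjusted p was 0.027 at the same fold change. The groups did not overlap, with tdp-1(ok803) lower, as in 5.75% of all genes tested. However, the call was lost when tdp-1(ok803) replicate 1 or 2 or wild-type replicate 2 or 3 was left out. The log2 fold changes were then -0.16, -0.26, -0.25 and -0.17.

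**Figure D5:**
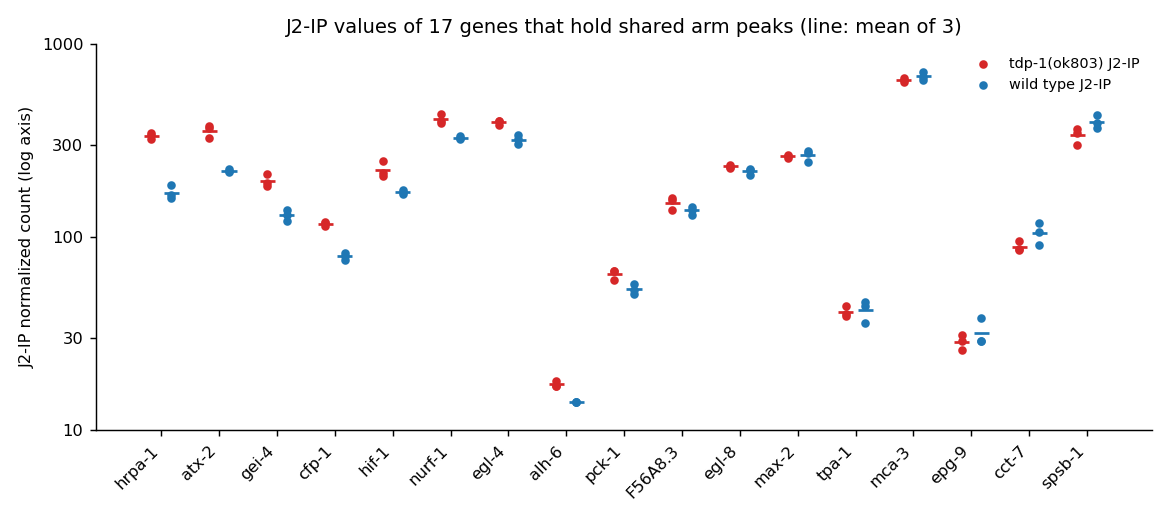
J2-IP normalized counts (vertical, log axis) of the 17 genes with members in each of 3 tdp-1(ok803) (red, left) and 3 wild-type libraries (blue, right), with lines at the means and genes ordered by log2 fold change from hrpa-1 (0.98) to spsb-1 (-0.24). All red points lie above all blue ones for 10 of the 17 genes, against 49.6% of all genes tested, and below them for spsb-1, against 5.75%.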

How the data were processed

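ChIP reads were aligned by the authors to WS220 with Bowtie, and peaks were called with MACS for each library. The RNase-treated ChIP was the control for both anti-TDP-1 libraries and was itself normalized to total genomic reads. The authors deposited each peak's position and score. The deposited edited regions give positions only, without coverage, and their columns on changes between genotypes, with p-values, were not used. Poly(A) values deposited by the authors are normalized counts per gene (a signal), and whole reads were recovered from them (100% of values whole to within 0.01, 65546397 to 107297985 reads per library). J2-IP and input values are deposited as rounded normalized counts, treated as a score because their depth is unknown. Whether the J2-IP values already include the paper's normalization to input is not stated, and they were used as deposited. The submitters' processing notes name CASAVA 1.8, TopHat2 2.0.10, Bowtie2 2.1.0 and HTSeq 0.5.4p3.

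Peak sets were intersected, with 1 bp as the least overlap (Python 3.11.15, pandas 2.3.3), and shares have Wilson 95% intervals (scipy 1.17.1) that cover counting error only. Members at most 1000 bp apart formed a cluster. Genotypes were compared with limma 3.58.1 (R 4.3.3) on log2(normalized count + 1) of genes with a mean of at least 10, over the whole table, with limma's trend option, and p-values were adjusted by Benjamini-Hochberg. A fold change on that scale understates the change of low genes. Alternatives were edgeR 4.0.16 (quasi-likelihood) and DESeq2 1.42.0 on recovered reads, quantile normalization, equal totals, another pseudocount, no filter, libraries left out and a replicate block. Same-numbered libraries deviated together across genes (r = 0.66, 0.44 and 0.35 for poly(A) and 0.40, 0.77 and 0.56 for J2-IP replicates 1 to 3), and the block was fitted for that reason. Libraries of different number were not compared in this way, and the labels state no pairing. Whether the numbers pair the samples is therefore not settled. Gene symbols of the J2-IP and input tables were matched through RefSeq names (8606 of 8783 genes).

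Named peaks are the top member of each arm, the top 10 by replicate 2 score (ties by replicate 1 score, then width), the 3 widest and the 3 nearest pairs, and named genes are those whose edited region meets a member. The listed genes, klp-7, ZC416.2, pod-2, the near misses and the array on V were singled out after their values were seen. Members and lists were chosen with earlier results of these data known. Scripts were tested on simulated data. Repeats, introns and sequence of WS220 were not analysed here.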

Additional observations from a re-analysis of the deposited data

How the results depend on the processing

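The number of members stayed within 1.5 times of 596 with 50% of the peak required to be covered (526), arms of the outer 20% (457) or 33% (890), scores of at least 100 in both replicates (424), the RNase control ignored (607) and replicate 1 peaks counted (508). Leaving out a ChIP replicate gave 781 to 6270 members, differences of arms minus centres of -40.6 to 12.6 in median score and -56 to 39 bp in median width, both positive with replicate 1 peaks alone, and 4 to 39 edited regions that met a peak. At scores of at least 100 the score difference was -172. Leaving out any autosome kept it between -85.9 and -55.3. Called poly(A) genes were 0 in limma and edgeR, 1 with the replicate block, 19 in DESeq2 and 565 without replicate 1 of both genotypes, the last chosen after seeing the data, with none among the 17 genes. Called J2-IP genes were 1779 among those above 1.5 times the wild-type input and 3984 (3525 higher, 459 lower) with the replicate block, and under equal totals, also chosen after seeing the data, 970 were higher and 1987 lower. Under equal totals the log2 fold changes of alh-6 (-0.047), nurf-1 (-0.042), pck-1 (-0.088), egl-4 (-0.061) and egl-8 (-0.27, called lower) turned negative, gei-4 (0.22) was no longer called, and quantile normalization turned egl-8 to -0.14; the cause was not tested. In poly(A), egl-8 lay between -0.35 and 0.056 over the libraries left out. The block changed no other call among the 17 genes than that of cct-7. ChIP depth, 2 ChIP replicates of unequal size and 1 RNase control limit the peak comparisons.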

Other observations

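Several members lay on genes that the study's abundance list names, and their positions are given as values, chosen after they were seen. On the left arm of II, 4 members with replicate 2 scores of 3100, 812, 79.0 and 544 stood next to each other at pod-2 (1147299 to 1153088), all on replicate 1 peaks at 3100. On the left arm of III, 4 members with replicate 2 scores of 99.9, 499, 139 and 282 lay at pho-9 (2756946 to 2759605). On the right arm of III, a member of score 201 lay at sip-1, a small heat shock protein gene (10505874 to 10506459, replicate 1 score 3100). Of the collagen genes on the study's lists, 2 were met by members: col-103 on the left arm of IV (2 members, scores 674 and 514, replicate 1 score 3156) and col-42 on the right arm of V (score 1453, replicate 1 score 3100). None of these members lay wholly inside the gene, and collagen genes outside the lists were not matched.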
